A study of Caenorhabditis elegans with 2 samples.

Results

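Small nucleolar RNA (snoRNA) genes on the 5 autosomes of Caenorhabditis elegans were examined for binding of the transcription factor UNC-62 in embryos. The members were all genes of the biotype snoRNA on chromosomes I to V in the Ensembl annotation of the assembly WBcel235 (ce11), 313 of 40868 autosomal genes. For each of them the nearest summit, the position of highest signal within a peak, was taken from the authors' list of reproducible peaks. The members lay on all 5 autosomes (74 on I, 71 on II, 54 on III, 59 on IV and 55 on V) and were 54 to 344 bp long with a median of 129 bp. A further 33 snoRNA genes on X are not described here.

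Binding was measured by chromatin immunoprecipitation with sequencing and deposited as lists of peaks, from 2 biological replicates of 1 group and no second condition. The worms were of strain OP600, which carries the allele unc119(ed3) and the array wgIs600. The array holds an unc119 copy and a transgene for UNC-62 tagged with TY1, EGFP and FLAG, and both replicates carried all of these. The material was whole embryos of mixed stages and both sexes, with age unknown, so a peak can come from any subset of the cells, the labels name unc-62 as the antibody's target, and the state of the endogenous unc-62 gene was not stated. The reproducible list, thresholded by irreproducible discovery rate (IDR), held 2754 peaks, of which 2088 were autosomal, while the lists with weaker peaks held 21749 peaks in replicate 1, 30000 in replicate 2 and 17083 in the pooled reads. Sequencing depth was unknown, so a gene without a summit cannot be read as unbound.

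snoRNAs guide the chemical modification of other RNAs, chiefly ribosomal RNA, as parts of nucleolar ribonucleoproteins. Those of the box C/D class direct methylation of the ribose, and those of the box H/ACA class direct conversion of uridine to pseudouridine. Many animal snoRNAs are cut out of introns of host genes, hosts that often encode ribosomal or nucleolar proteins, while others have promoters of their own. UNC-62 is a TALE homeodomain protein of the Meis/Prep family and works with PBC-class and Hox partners. Transfer RNA (tRNA) genes, which recur below, are read by RNA polymerase III from internal promoter elements called the A box and the B box, which the factor TFIIIC binds.

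The sequence just upstream of the members is shown first, since it is where the summits lay. Of the 39 members with a summit in the 100 bp upstream of the annotated 5′ end, 8 had, in the order found in a tRNA gene, a match to an A-box-like motif and then a match to a B-box-like motif on the gene's own strand. The motifs were TGGNNNAGT and GTTCNANNC, where N is any base. Of these, 6 are given from 120 bases before the 5′ end to 20 bases inside the gene, from 5′ to 3′, with matches to either motif in capitals.
T03F7.8: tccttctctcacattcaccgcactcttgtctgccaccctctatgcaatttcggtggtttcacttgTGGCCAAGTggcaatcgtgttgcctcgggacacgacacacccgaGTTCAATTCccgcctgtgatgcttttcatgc
C04G6.12: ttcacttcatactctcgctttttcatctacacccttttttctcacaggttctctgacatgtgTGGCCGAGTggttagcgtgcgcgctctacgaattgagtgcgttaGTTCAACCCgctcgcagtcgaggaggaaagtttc
Y43F8C.22: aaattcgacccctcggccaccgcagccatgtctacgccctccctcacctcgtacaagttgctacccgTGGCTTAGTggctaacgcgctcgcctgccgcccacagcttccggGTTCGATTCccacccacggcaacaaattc
F30H5.4: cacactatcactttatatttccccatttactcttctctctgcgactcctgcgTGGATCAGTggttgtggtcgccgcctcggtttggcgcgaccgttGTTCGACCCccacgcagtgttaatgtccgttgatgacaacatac
Y75B12B.12: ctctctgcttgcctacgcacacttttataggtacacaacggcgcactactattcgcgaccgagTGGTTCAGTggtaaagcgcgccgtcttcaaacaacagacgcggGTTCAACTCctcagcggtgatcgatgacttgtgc
M106.6: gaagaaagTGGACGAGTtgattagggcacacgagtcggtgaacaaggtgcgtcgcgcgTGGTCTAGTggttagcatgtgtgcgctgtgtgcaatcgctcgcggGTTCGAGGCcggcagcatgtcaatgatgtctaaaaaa
The windows, from the RefSeq sequence of WBcel235, are chrV:11314138-11314277 on the plus strand for T03F7.8, chrII:5105212-5105351 on the minus strand for C04G6.12, chrV:19643168-19643307 on the minus strand for Y43F8C.22, chrIII:502684-502823 on the plus strand for F30H5.4, chrV:15191074-15191213 on the minus strand for Y75B12B.12, chrII:10840197-10840336 on the plus strand for M106.6. In all 6 the B-box-like match ended upstream of the annotated snoRNA gene, and the A-box-like match nearest to it started 43 to 45 bases further upstream.

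For contrast, D1046.6 and C46C2.8 had strong summits in the same 100 bp but no match to either motif on either strand. C46C2.8 did hold a match on its own strand to the looser GTTCNNNNC, which is counted below. Both genes are given over the same window.
D1046.6: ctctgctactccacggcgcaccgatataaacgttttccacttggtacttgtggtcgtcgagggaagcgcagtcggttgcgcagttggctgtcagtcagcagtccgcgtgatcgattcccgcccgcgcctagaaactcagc
C46C2.8: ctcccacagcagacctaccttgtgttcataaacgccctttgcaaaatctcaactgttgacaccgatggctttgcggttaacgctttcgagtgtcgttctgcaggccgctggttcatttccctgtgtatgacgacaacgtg
These windows are chrIV:8927145-8927284 on the plus strand for D1046.6 and chrIV:9191314-9191453 on the minus strand for C46C2.8. The RefSeq annotation places a tRNA pseudogene, D1046.t1, at chrIV:8927200-8927273 on the plus strand, 74 bp long, so it lies inside the D1046.6 window and overlaps the first 9 bases of the snoRNA gene.

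UNC-62 summits were found near snoRNA genes more often than near genes of the other classes compared. Of the 313 members, 69 had a summit within 500 bp of the gene (22.0%, exact 95% binomial interval 17.6 to 27.1%), against 5.79% of all autosomal genes. The share was 12.2% for lincRNA, 11.9% for other non-coding RNA, 11.3% for tRNA, 10.3% for snRNA, 9.63% for miRNA and 7.69% for protein-coding genes. It was 1.55% for piRNA genes, 0.974% for pseudogenes and 0 of 20 for ribosomal RNA genes, which allows up to 16.8%. All such intervals cover counting error only, since both replicates went into a single list.

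The same count was made after all peaks of an autosome were moved along it by the same step, with the end joined to the start. Over 99 evenly spaced steps the number of members with a summit within 500 bp was 9.0 on average and ranged from 3 to 19, below the 69 found with the peaks in place. Seen from the peaks, 69 autosomal summits (3.30%) lay within 500 bp of a member, in sequence that makes up 0.411% of the autosomes. The 69 members used 67 distinct nearest summits, because C51F7.3 and C51F7.4 shared 1 and C27H5.9 and C27H5.10 shared another.

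**Figure D1:**
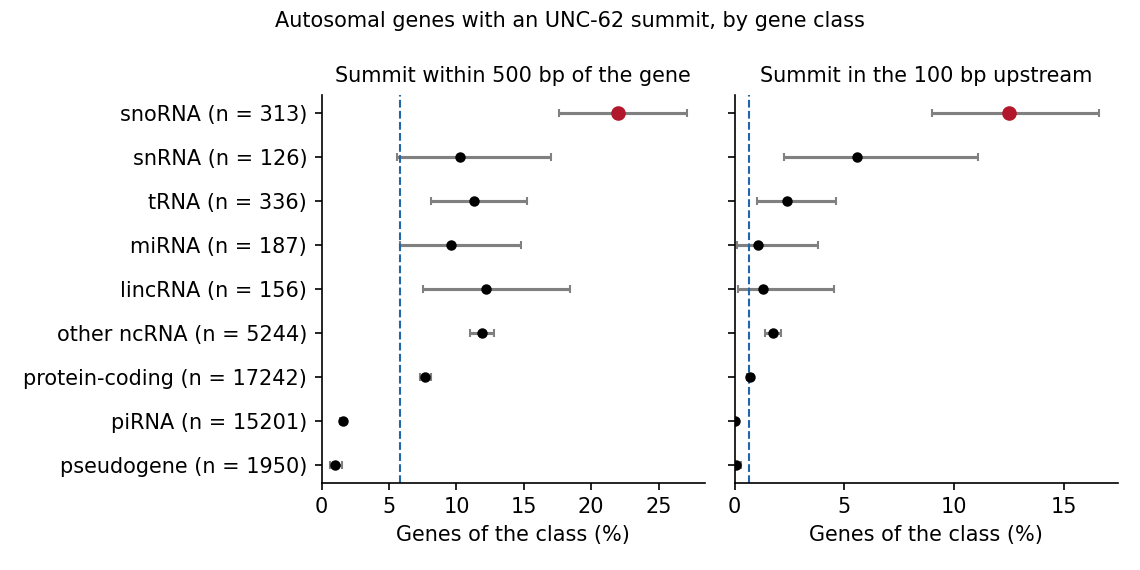
Share of autosomal genes of each class with a reproducible UNC-62 summit within 500 bp (left) or in the 100 bp upstream of the 5′ end (right), in percent. Points are shares, bars exact 95% binomial intervals, and dashed lines the share of all autosomal genes (5.79% and 0.670%); the snoRNA point, in red, is the rightmost in both panels at 22.0% and 12.5%.

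The summits were not spread over the 500 bp but gathered just upstream of the snoRNA genes. Of the 69, 55 lay upstream of the annotated 5′ end, 8 inside the gene and 6 beyond its 3′ end. The 100 bp just upstream held 39, while each of the other 100 bp steps out to 500 bp upstream held 2 to 5, in order 5, 2, 4 and 5. As a share of all members the 39 were 12.5% (9.01 to 16.6%), against 0.670% of all autosomal genes, 0.708% of protein-coding, 1.74% of other non-coding RNA, 2.38% of tRNA and 5.56% of snRNA genes. The snRNA interval, 2.26 to 11.1%, overlapped that of the snoRNA genes. With the shifted peaks the count was 0.717 on average and at most 3.

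Within the 100 bp the median summit stood 38 bp upstream, with extremes of 88 bp for T19B4.8 and 4 bp for F47G4.9. W03C9.9, at 102 bp, and F39B2.14, at 117 bp, were the members next outside. The authors' signal of the 39 peaks ran from 60.1 to 263 with a median of 97.7, near the median of 94.4 over all autosomal peaks of the list, so these were peaks of ordinary height. No annotated tRNA or snRNA gene lay within 200 bp of any of the 69 summits. Of the 39, 11 were also within 500 bp of the start of a protein-coding gene, as were 29.3% of all autosomal summits.

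**Figure D2:**
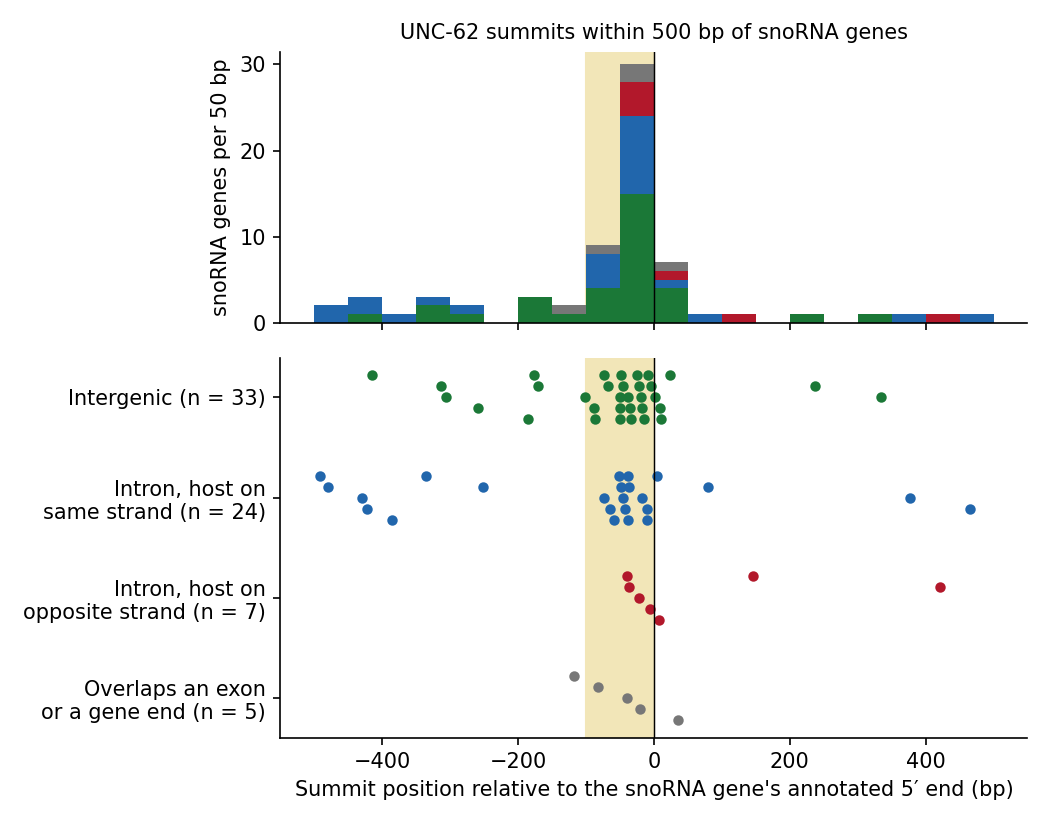
Position of the nearest reproducible UNC-62 summit relative to the annotated 5′ end of the 69 snoRNA genes with a summit within 500 bp, in bp, with negative values upstream. The upper panel counts genes per 50 bp in the colours of the lower panel, where each point is 1 gene, and the shaded 100 bp upstream hold 39 of the 69.

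Both replicates were looked at on their own. The reproducible list was chosen on these replicates, so a summit within 500 bp in both full lists, found for 67 of the 69 members (97.1%) and for 98.2% of all autosomal genes near a reproducible summit, is not a separate check. In replicate 1 the summits nearest the 39 had a median rank of 1217 by signal (95 to 10819), and in replicate 2 of 1355 (150 to 8456). The replicate summits stood a median of 4 bp and 15 bp from the reproducible one, and in 29 of the 39 members both lay inside the same 100 bp. The largest offsets were 196 bp in replicate 1 and 4410 bp in replicate 2, so a replicate rank can belong to a peak away from the reproducible summit. Taking only as many of the strongest peaks of 1 replicate as the reproducible list holds, replicate 1 gave 74 members within 500 bp and 44 with an upstream summit, and replicate 2 gave 60 and 30. The shares of all autosomal genes within 500 bp were 5.74% and 5.76% in these 2 lists. Replicate 2 thus had fewer members within 500 bp at nearly the same background. For the upstream 100 bp the members' shares were 14.1% (10.4 to 18.4%) in replicate 1 and 9.58% (6.56 to 13.4%) in replicate 2. These intervals overlap. The upstream share of all autosomal genes was also lower in replicate 2, at 0.631% against 0.702% in replicate 1.

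**Figure D3:**
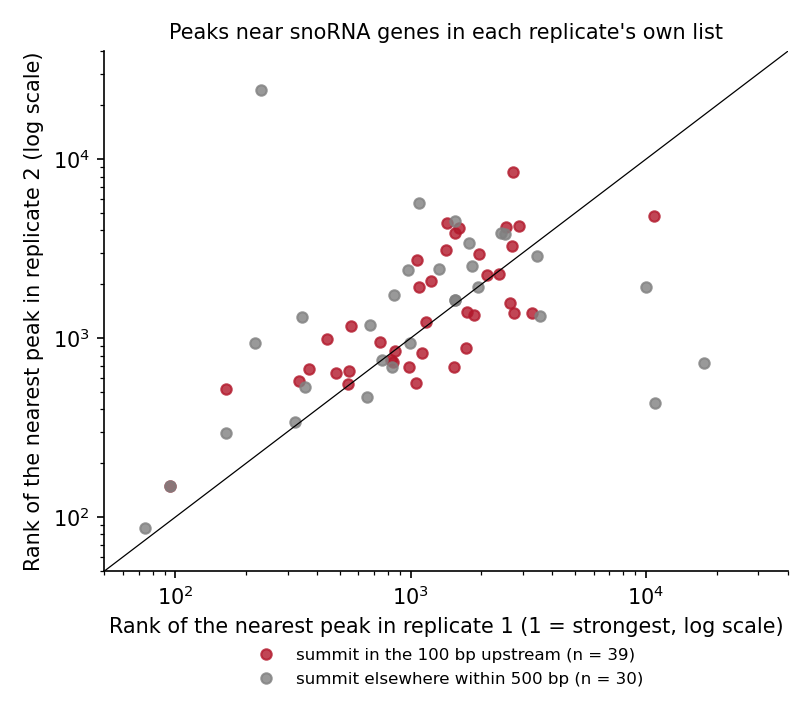
Rank of the peak nearest each of the 69 snoRNA genes in the full list of replicate 1 (x) and of replicate 2 (y), where 1 is the strongest peak and both axes are logarithmic. Red points have the reproducible summit in the 100 bp upstream and grey points elsewhere within 500 bp; the red points run from 95 to 10819 in replicate 1 and from 150 to 8456 in replicate 2, and the line marks equal ranks.

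Intergenic snoRNA genes, those that overlap no protein-coding gene, had the highest share near a summit, though the interval of the members in opposite-strand introns, given below, holds it. Of 101, 33 had a summit within 500 bp (32.7%, 23.7 to 42.7%), against 15.7% of intergenic other non-coding RNA, 14.4% of intergenic tRNA and 13.3% of intergenic snRNA genes, whose interval of 5.94 to 24.6% overlaps. With shifted peaks the count was 3.01 on average, 0 to 8. A summit in the upstream 100 bp was present in 19 of them (18.8%, 11.7 to 27.8%), against 2.57%, 0.719% and 8.33% in those other intergenic classes. The snRNA interval, 2.76 to 18.4%, overlapped that of the members here too.

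Among the 12 intergenic members with the strongest summits, position and replicate ranks varied. M7.15 had the highest signal, 193, with the summit 171 bp upstream, and ranked 435 in replicate 2, but its nearest peak in replicate 1 ranked 10906. C01B10.48 followed at 184 and 415 bp upstream, with ranks of 231 in replicate 1 and 24317 in replicate 2, and W06H8.17 at 177 and 259 bp upstream, with ranks of 218 and 944. For the first 2 of these the peak nearest the gene was strong in 1 replicate and weak in the other. That peak need not be the one at the reproducible summit, so these ranks do not show that the replicates differ there.

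T06C12.16 (signal 164, 50 bp upstream) ranked 336 and 575 in the replicates, with replicate summits 48 and 62 bp upstream. C41C4.11 (147, also 50 bp upstream) ranked 442 and 989. C46C2.8 (132, 35 bp upstream) ranked 560 and 1169. These 3 placed high in both lists, with summits close to the gene's 5′ end in the reproducible list. ZK265.10 (147, 73 bp) and F17C11.24 (130, 67 bp) also had theirs in the upstream 100 bp, whereas W03C9.9 (147, 102 bp), R166.10 (148, 314 bp) and T25D3.8 (128, 186 bp) had theirs further upstream and ZK20.9 (151) had its summit 10 bp inside.

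A same-strand intron of a protein-coding gene held 146 members in 126 host genes, and 24 of these members had a summit within 500 bp (16.4%, 10.8 to 23.5%). The shifted peaks gave 4.08 on average, 0 to 10. The share was 8.91% for other non-coding RNA, 7.02% for tRNA, 11.4% for snRNA and 12.1% for miRNA genes in same-strand introns, and the intervals of the last 2, 3.20 to 26.7% and 4.99 to 23.3%, held the value of the snoRNA genes. Of the hosts 54 of 126 were near a summit (42.9%), but this partly restates the member count, since a host encloses its snoRNA gene. Among the 102 hosts with no hosted member near a summit it was 30 (29.4%, 20.8 to 39.3%), against 7.79% of protein-coding genes with an intron. Gene length, which widens the stretch in which a summit counts, was not matched between the hosts and these genes.

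Hosts with strong summits covered many functions. The strongest of all was 491 bp upstream of C06A1.9, in an intron of cdc-48.1, a p97-type AAA ATPase, with a signal of 302, rank 68 in the reproducible list and 74 and 87 in the replicates. C51F7.3, in the FERM-domain gene frm-7, came next with a signal of 263, 73 bp upstream, and ranks of 95 and 150. D1046.6, in cfim-2, a gene for a pre-mRNA cleavage factor subunit, had a signal of 162, 38 bp upstream, and ranks of 369 and 671. The last 2 had their summits at the snoRNA gene, while the first is at the edge of the 500 bp window.

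K02F3.15, in zip-2, a bZIP factor of the infection response, had its summit (216) 465 bp past the 5′ end, ZK994.7, in the peroxidasin gene pxn-1, 5 bp inside (186), and K10G6.10, in sea-2, 377 bp past the 5′ end (119). F55A11.10 in F55A11.6 (127, 38 bp), Y43F8C.22 in Y43F8C.7 (126, 52 bp), Y38F2AR.14 in Y38F2AR.12 (113, 10 bp) and C10C6.8 in catp-8, a cation-transporting ATPase gene (97.7, 10 bp), had theirs in the upstream 100 bp. Among same-strand introns the upstream 100 bp held 13 of the 24 summits. These were 8.90% of the 146 members there (4.83 to 14.7%), against 0.670% of all autosomal genes. In same-strand introns the share was 1.21% of other non-coding RNA, 2.63% of tRNA, 5.71% of snRNA and 0 of 58 miRNA genes. The tRNA, snRNA and miRNA intervals, up to 7.50%, 19.2% and 6.16%, overlapped that of the members.

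Ribosomal protein genes hosted 19 of the 146, in 13 hosts, and there the summits lay at the start of the host rather than at the snoRNA gene. Within 500 bp of a summit were 4 of the 19 (21.1%, 6.05 to 45.6%), against 20 of the 127 in other hosts (15.7%, 9.89 to 23.3%), with intervals that overlap. None of the 19 had a summit in the upstream 100 bp (0%, up to 17.6%), while 13 of the 127 did (10.2%, 5.56 to 16.9%), and these intervals overlap too. The 4 were F54E7.10 in rps-12 (signal 168, 251 bp upstream), Y24D9A.9 in rpl-7A (93.6, 335 bp), D1007.20 in rpl-24.1 (103, 430 bp) and B0041.9 in rpl-4 (76.6, 480 bp).

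Measured from the host, 13 of the 19 had their nearest summit 53 to 355 bp upstream of the host's annotated start, and the snoRNA gene followed 80 to 953 bp after that start. Members of the same host shared a summit, and 8 of the 13 ribosomal hosts had a summit within 500 bp, against 42.9% of all 126 snoRNA hosts. The 126 include these 13, which are few, and the difference was not tested. Of the 20 near members in other hosts, 7 also had their summit within 500 bp of the host's start. In rpl-15 the summit (signal 225) was 355 bp before the start, 570 bp from K11H12.13 and 901 bp from K11H12.12, and it ranked 175 and 181 in the replicates. In rpl-6 it (60.3) was 503 bp from R151.11, 909 bp from R151.12 and 1290 bp from R151.13. F54E7.11 and Y24D9A.10, the second snoRNA genes of rps-12 and rpl-7A, were 618 and 766 bp from the summits of their hosts. F28D1.13 in rps-23 and Y43B11AR.7 in rps-4 were 652 and 1043 bp away. A single summit at the host thus lay at unequal distances from the snoRNA genes of that host.

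The other 6 ribosomal-hosted members, F53G12.12 in rpl-7, F28C6.11 in rpl-26, B0412.6 and B0412.7 in rps-29, C16A3.11 in rps-13 and B0250.19 in rpl-2, were 9876 to 41182 bp from the nearest reproducible summit. The weaker peaks of the pooled list came within 515 bp of F53G12.12 (signal 42.4), 578 bp of B0412.6 (40.4) and 740 bp of B0250.19 (30.5). A like arrangement held for ubl-1, which encodes a ubiquitin-like protein fused to a ribosomal protein and was not counted among the 13 hosts: its summit (66.1) was 386 bp upstream of H06I04.9 and 706 bp upstream of H06I04.8.

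**Figure D4:**
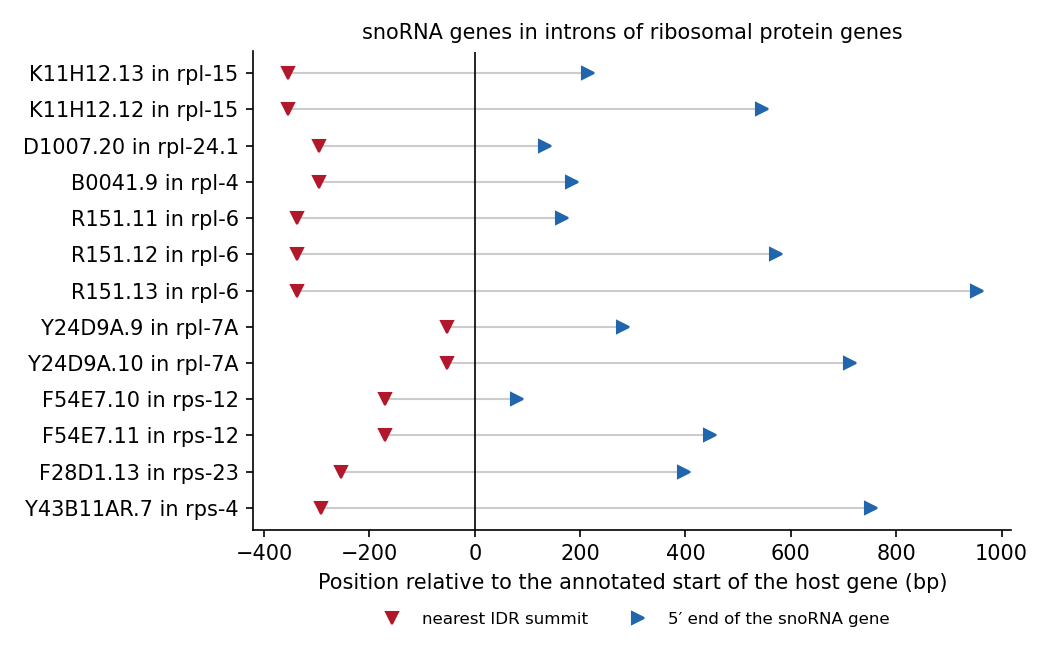
The 13 snoRNA genes in introns of ribosomal protein genes whose nearest reproducible summit was within 1000 bp of the host's start. Genes of the same host share the same summit. The x axis gives the position relative to the annotated start of the host in bp; red marks are summits, all 53 to 355 bp upstream, and blue marks are the 5′ ends of the snoRNA genes, 80 to 953 bp downstream.

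The gene nol-56, for a core protein of box C/D snoRNA particles, hosted 4 members (K07C5.10, K07C5.11, K07C5.12 and K07C5.18), more than any other host. None had a reproducible summit closer than 113987 bp, and the nearest pooled peaks had signals of 20.9 and 47.3. The values at the 500 bp limit were 491 bp for C06A1.9 and 480 bp for B0041.9 just inside, and 503 bp for R151.11 and 536 bp for Y37E3.21 just outside.

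An intron of a gene on the opposite strand held 28 members, and 7 of them had a summit within 500 bp (25%, 10.7 to 44.9%), against 5.79% of all autosomal genes and 8.71% of other non-coding RNA, 13.0% of tRNA genes, 2 of 25 miRNA and 1 of 20 snRNA genes in such introns. The tRNA, miRNA and snRNA intervals, 6.41 to 22.6%, 0.984 to 26.0% and 0.127 to 24.9%, overlap that of the members, and the shifted peaks gave 0.889 on average, 0 to 3. The 4 with the summit in the upstream 100 bp were T03F7.8 in the cuticlin-like gene cutl-18 (signal 204, 39 bp), C04G6.12 in mpk-2, a MAP kinase gene (156, 37 bp), H04D03.5 in smrd-1 (126, 6 bp) and ZK484.9 in haf-9, an ABC transporter gene (122, 22 bp). T03F7.8 ranked 165 and 521 in the replicates and C04G6.12 ranked 482 and 635. The 4 were 14.3% of the 28 members (4.03 to 32.7%), against 0.670% of all autosomal genes. In such introns the upstream share was 1.02% of other non-coding RNA, 5.19% of tRNA, 0 of 25 miRNA and 0 of 20 snRNA genes. The tRNA, miRNA and snRNA intervals, up to 12.8%, 13.7% and 16.8%, overlapped that of the members. In all 4 the snoRNA gene is read against the direction of the host. Of the rest, B0334.12 in twk-5, a potassium channel gene, had a summit (130) 146 bp past the 5′ end, and C27H5.9 and C27H5.10 in pdl-1 shared 1 (88.7) at 7 and 421 bp.

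The 38 members that overlap an exon or an end of a protein-coding gene had 5 with a summit (13.2%, 4.41 to 28.1%), an interval that holds the 5.79% of all autosomal genes, while the shifted peaks gave 1.02 on average, 0 to 4. T02E1.9 at spe-12 (signal 149, 21 bp), T27A3.9 at T27A3.8 (104, 40 bp) and W01C9.6 at glb-27, a globin gene (102, 83 bp), had it in the upstream 100 bp. These were 7.89% of the 38 (1.66 to 21.4%), against 0.670% of all autosomal genes. C51F7.4 had the summit of its neighbour C51F7.3 36 bp inside, and F39B2.14 at tmem-107 had 1 of signal 85.6 at 117 bp upstream.

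The tRNA-promoter-like motifs were most frequent in members with an upstream summit. On the gene's strand, from 120 bp upstream to 20 bp inside, GTTCNANNC was present in 18 of the 39 (46.2%), in 2 of the 30 with a summit elsewhere within 500 bp (6.67%) and in 15 of the 244 with none (6.15%). On the opposite strand it was in 0 of the 39. The same window held it in 2.08% of all other autosomal genes, 1.97% of protein-coding, 11.1% of snRNA and 1.49% of tRNA genes, while inside tRNA genes, where the B box lies, 94.9% had it. Taken the other way, 18 of the 35 members with the motif had an upstream summit (51.4%), against 21 of the 274 with the motif on neither strand (7.66%). Among other autosomal genes the motif went with no such difference, 4 of 844 with it on the gene's strand (0.474%) against 227 of 38978 with it on neither strand (0.582%).

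The motif mostly stood close to the gene. It started a median of 14 bp upstream of the 5′ end over the 19 matches of the 18 members, with extremes of 5 and 70 bp. The summit was within 50 bp of its centre in 17 of the 18, with a median of 25.5 bp and a highest value of 80 bp. The 18 were chosen to have both summit and motif in this short stretch, so a small distance was largely set in advance. In windows of 50 bp to each side of the summit, on either strand, 16 of the 39 summits had GTTCNANNC (41.0%). It was at 1 of the 28 other summits near members (3.57%) and 52 of the 2021 remaining autosomal summits (2.57%). The looser GTTCNNNNC was counted on the gene's strand from 120 bp upstream to 20 bp inside. There it was in 23 of the 39 members (59.0%), 14.3% of the members without a summit within 500 bp and 6.89% of other autosomal genes.

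The pair of motifs was rarer still. TGGNNNAGT followed by GTTCNANNC on the gene's strand was found in 12 members, of which 8 had an upstream summit, against 17 of 40551 other autosomal genes (0.0419%). TGGNNNAGT and the spacing were chosen after seeing the data, so these counts describe the members and are not a test. From the start of 1 motif to the start of the other was 43 to 45 bp in all 12 members. TGGNNNAGT was inside only 102 of the 336 tRNA genes (30.4%), so most tRNA genes had no match to this form of the A box. Inside tRNA genes that hold the pair the distance had a median of 44 bp, and 67 of 90 fell in 43 to 45 bp, while 5 of the 17 other genes did. The 8 were T03F7.8, C04G6.12, Y43F8C.22, F30H5.4, Y75B12B.12 and M106.6, shown above, with T08B2.13 and T19B4.8. Of the 4 without a reproducible summit, T10B9.11 had a weaker pooled summit 40 bp upstream (signal 54.8), ZK546.18 and T24H7.6 had 1 at 15 and 20 bp inside the gene (42.5 and 42.6), and R166.7 had 1 at 151 bp past its 5′ end (21.4).

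The printed members differed in height and in replicate agreement. F30H5.4 (signal 90.6, 18 bp upstream) ranked 1067 and 2724 in the replicates, Y75B12B.12 (72.2, 19 bp) ranked 1963 and 2948, and M106.6 (65.2, 37 bp), in mix-1, a condensin subunit gene, ranked 2692 and 3261. Y43F8C.22 ranked 985 and 689. These members were printed because they hold both motifs, so their ranks do not show how often the motifs occur at weak summits. A further 24 members had a weaker pooled summit in the upstream 100 bp and no reproducible summit within 500 bp. GTTCNANNC was on the gene's strand in 3 of these (12.5%, 2.66 to 32.4%). It was in 18 of the 39 with a reproducible upstream summit (46.2%, 30.1 to 62.8%), and the intervals overlap slightly.

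**Figure D5:**
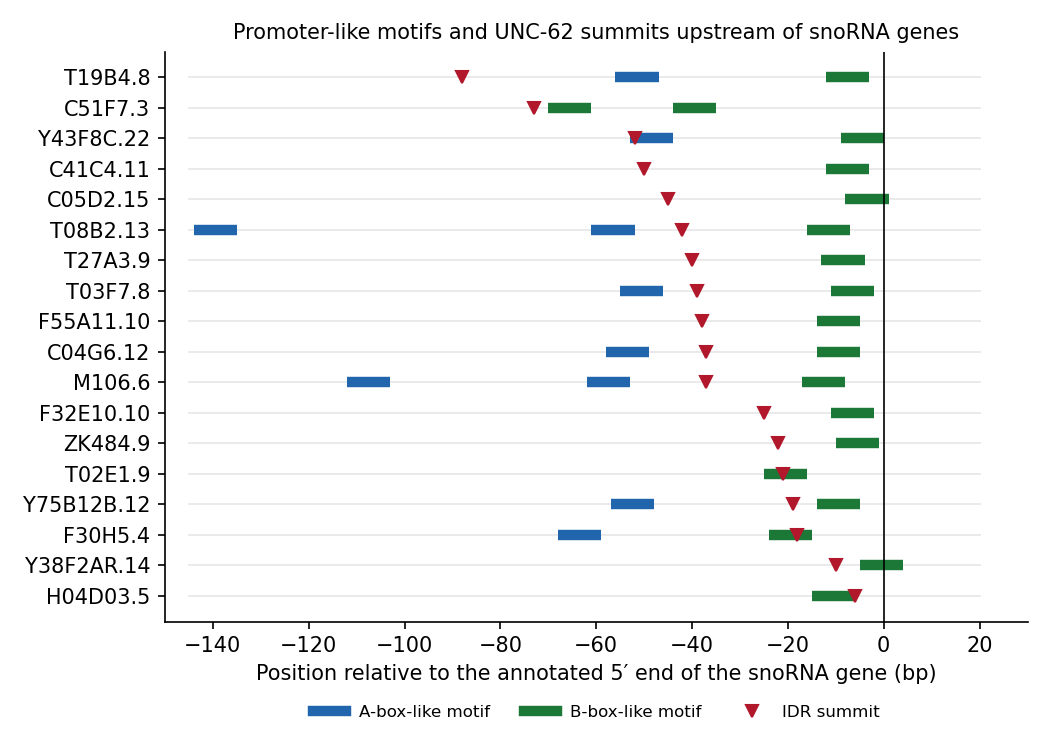
The 18 snoRNA genes with a summit in the upstream 100 bp and a B-box-like motif on their strand, ordered by summit. The x axis gives the position in bp relative to the annotated 5′ end; green bars are GTTCNANNC, blue bars TGGNNNAGT and red marks the reproducible summit, with motifs drawn to 200 bp upstream where present. The summit stands within 50 bp of the centre of a green bar in 17 genes, a closeness largely set by how the 18 were chosen.

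Annotated tRNA pseudogenes as a class were seldom near a summit. RefSeq lists 180 on the autosomes, of which 4 had a summit within 500 bp (2.22%, 0.609 to 5.59%), below the 5.79% of all autosomal genes, and 2 had a summit inside. These 2, D1046.t1 and T08B2.t1, are 74 and 72 bp long, lie on the strand of the snoRNA genes D1046.6 and T08B2.13 and overlap their first 9 and 4 bases. In the same position F19H8.t1, a pseudogene of 70 bp, overlaps the first 8 bases of F19H8.6, which had no reproducible summit within 500 bp and a pooled summit 78 bp past its 5′ end (signal 24.8, rank 9776).

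Other motifs were also counted, on both strands. GAGAGA was within 50 bp of 4 of the 39 upstream summits (10.3%, 2.87 to 24.2%), 4 of the 28 other summits near members (14.3%) and 34.8% of the autosomal summits away from members. Over the members' upstream windows of the same extent as above, on either strand, the order was the other way, with it in 10 of the 39 (25.6%), 11.5% of members without a summit within 500 bp and 8.67% of other genes. TGACAG, a core that Meis-type homeodomains bind, was near 1 of the 39 (2.56%, 0.0649 to 13.5%), 5 of the 28 (17.9%) and 12.8% of the summits away from members. TGATTGAT, a composite site of PBC and Hox proteins, was near 0 of the 39 (up to 9.03%), 1 of the 28 and 3.27%. For the last 2 motifs the intervals of the 39 held the share away from members. The upstream windows of the 39 were richer in G and C, with a median of 52.9%, than those of members without a summit (42.1%) and of other genes (30.7%), and the part of base composition in the motif counts was not tested.

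The members' own sequences were searched for the boxes that define the snoRNA classes. Box D (CTGA in the last 20 bases) was found in 76, of which 16 had an upstream summit (21.1%), and ACA followed by 3 bases at the 3′ end, the tail of the H/ACA class, was found in 53, of which 11 had one (20.8%). Of the 192 with neither box D nor the ACA end, 14 had an upstream summit (7.29%). Box C (TGATGA in the first 20 bases) was found in 20 members, and together with box D in only 14. A match to box D alone thus does not place a member in the C/D class. Within 500 bp of a summit were 15 of 25 intergenic members with box D and 4 of 4 with the ACA end, against 6 of 38 (15.8%) and 9 of 45 in same-strand introns, where all members had 16.4%. In opposite-strand introns they were 2 of 7 and 1 of 3, and among members that overlap an exon or a gene end 0 of 6 and 1 of 1. No 2 members had the same sequence or the same upstream window.

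Below the reproducible threshold, further members had a summit in the same position. Of the 244 without a reproducible summit within 500 bp, 73 (29.9%, 24.2 to 36.1%) had a summit of the pooled list within 500 bp, an interval that holds the 24.3% of all such autosomal genes, while 24 (9.84%, 6.40 to 14.3%) had it in the upstream 100 bp, against 2.35%. In the whole pooled list 142 members (45.4%) had a summit within 500 bp, against 28.7% of all autosomal genes. The share there was 47.3% for tRNA, 39.1% for lincRNA and 37.7% for protein-coding genes, so the members did not have the highest share. The strongest of the 24 were C17D12.8 (pooled signal 58.7, 44 bp upstream) and W08G11.6 (58.2, 54 bp), which had a summit in the same 100 bp in both replicate lists. Of the 68 intergenic members without a reproducible summit, 14 had a pooled summit there (20.6%), against 7 of 122 in same-strand introns (5.74%), 3 of 21 in opposite-strand introns (14.3%) and 0 of 33 that overlap an exon or a gene end.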

How the data were processed

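The 2 libraries are biological replicates of 1 group, per the labels, sequenced from fragments of 150 to 350 bp. The authors deposited peak lists on ce11, 1 for each replicate, 1 pooled and 1 thresholded by IDR from the others; the authors used a control file in calling, per the deposited file descriptions, and no control library was analysed here. Column 7 is the authors' deposited signal per peak, used to rank and describe peaks within 1 list, column 9 the authors' deposited −log10 q value, and column 10 the authors' deposited summit offset from the peak start. For aligner, peak caller, IDR threshold and depth nothing is given in the sources used here. Precision is stated as exact (Clopper-Pearson) 95% binomial intervals, which cover counting error only. The lists on ce10 were not used.

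Summits were set against Ensembl release 115 genes with Python 3.11.15, pandas 2.3.3, numpy 2.4.6 and scipy 1.17.1. The distance ran from the gene's nearer end and was 0 for a summit inside the gene. A host is a protein-coding gene with an annotated same-strand intron around the whole snoRNA gene, and ribosomal hosts are named rps-, rpl- or rla-. The distance search was checked on simulated data. No p-value is given, since the members and lists were chosen with earlier results of these data known and the IDR list is a single list.

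Genes named by rule were all those in ribosomal hosts, the 12 strongest near members in introns, the 12 strongest intergenic, all near members in other positions and the 2 members to each side of 500 bp. Others were named after their values were seen, for upstream motifs, pseudogenes, hosts or weaker peaks. The 100 bp window, the upstream motif window, TGGNNNAGT, GTTCNNNNC, the motif spacing and the pseudogene count were chosen after seeing the data.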

Additional observations from a re-analysis of the deposited data

How the results depend on the processing

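Of 39 alternatives, 29 gave a count within 1.5 times the reported one. The strongest 1377 peaks of the reproducible list left 40 of 69 members within 500 bp, 13 of 24 in same-strand introns, 18 of 33 intergenic and 22 of 39 with an upstream summit, and the whole pooled list gave 142, 53, 65 and 64; both change the number of peaks by construction. For same-strand introns a distance of 1000 bp gave 37, and overlap of the peak with the gene gave 15. Leaving out replicate 1 or replicate 2 gave 60 and 74 members within 500 bp, 22 and 23 in introns, 26 and 36 intergenic, and 30 and 44 with an upstream summit. Without summits within 500 bp of a protein-coding start 47 members were left, and 28 with an upstream summit. Across the settings run, the members' share was 1.58 times that of all autosomal genes with the whole pooled list, the lowest, and 5.20 times with distance from the 5′ end, the highest, against 3.81 as reported. A host on either strand changes no intergenic count, since those members overlap no protein-coding gene. The alternatives for the upstream window and the motifs were chosen after seeing the data. No paired analysis was possible because there is 1 group. Depth is unknown, which limits what can be said of members without a summit.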
